A study of Rattus norvegicus with 6 samples.

Results

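This report covers 9 genes whose products build the node of Ranvier and the paranode of myelinated axons: Gldn, Nrcam, Nfasc, Cntn1, Cntn2, Cntnap1, Cntnap2, Ank3 and Epb41l3. They were chosen by symbol from a count table of 29884 genes, and all 9 were present and passed the filter on low counts that left 15464 genes for testing. Expression was measured by RNA sequencing of sciatic nerve from wild type rats after chronic constriction injury (CCI), a model that damages the nerve with ligatures tied around it. Of the 6 libraries, 3 came from injured nerve without treatment ("Rat CCI model") and 3 from injured nerve treated with PLLA-PCL-RVC, a nerve conduit that the design text calls piezoelectric and ropivacaine-bearing. Both groups carry the injury, and the set holds no uninjured nerve. Strain, sex, age and time after injury are not given in the labels, nor whether each library is a separate animal. The p-values below therefore reflect library-to-library spread only, part of which may be technical.

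The node is the gap between myelin segments where sodium channels cluster and the action potential is renewed. Myelinating Schwann cells secrete gliomedin (Gldn) and the adhesion molecule NrCAM (Nrcam) from their microvilli, and these bind axonal neurofascin (Nfasc), which ankyrin-G (Ank3) ties to channels and spectrin. At the flanking paranode a glial form of neurofascin binds an axonal pair, contactin-1 (Cntn1) and Caspr (Cntnap1), and protein 4.1B (Epb41l3) links Caspr to the cytoskeleton. Farther out, at the juxtaparanode, contactin-2 (Cntn2) on both membranes and Caspr2 (Cntnap2) hold potassium channels in place. Nerve tissue contains axons but not the neurons' cell bodies, so transcripts of genes made mainly by neurons are scarce in it.

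The bases before the start sites of Gldn and Nfasc are shown because the most abundant Schwann cell member and the member with the largest change moved in opposite directions. RefSeq's table for the GRCr8 build, another build than that of the counts, held windows for 6 of the 9 members. Each is the 250 bases before the start, 5′ to 3′ on the gene's strand, with CpG dinucleotides in capitals. The Gldn window is chr8:63575020-63575269 on the plus strand and has 4 CpG. The Nfasc window is chr13:46701165-46701414 on the minus strand, the first of 2 listed starts, and also has 4 CpG.
Gldn: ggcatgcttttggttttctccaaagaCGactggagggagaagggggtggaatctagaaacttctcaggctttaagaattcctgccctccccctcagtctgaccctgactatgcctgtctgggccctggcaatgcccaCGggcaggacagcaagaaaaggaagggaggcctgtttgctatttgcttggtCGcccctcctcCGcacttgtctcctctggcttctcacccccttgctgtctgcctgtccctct
Nfasc: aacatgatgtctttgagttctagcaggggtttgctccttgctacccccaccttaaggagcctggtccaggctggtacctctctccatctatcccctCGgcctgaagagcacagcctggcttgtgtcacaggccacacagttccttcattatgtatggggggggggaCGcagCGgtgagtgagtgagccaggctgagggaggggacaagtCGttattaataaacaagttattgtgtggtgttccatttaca
GC content was 56.4% for Gldn and 52.8% for Nfasc, beside a median of 51.2% over 33469 windows of the same length. In all 7 member windows 6 short motifs were searched on both strands. The EGR factor core GCGTGGG occurred in 3.68% of the 33469 windows, the SOX core ACAAAG in 16.3% and the AP-1 site TGANTCA in 6.34%. The TEAD core GGAATG was found in 12.06% of windows, the promoter element GGGCGG, a target of SP1, in 30.47%, and the start site element TATAAA in 12.93%. No member window held these letters, which says nothing of the factors themselves.

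Conduit-treated nerves had more transcript of 5 of the 9 genes and less of Gldn and Nrcam, which encode Schwann cell ligands of the node. Nfasc, Cntnap2, Ank3, Epb41l3 and Cntnap1 rose, Nrcam and Gldn fell, and Cntn1 and Cntn2 did not pass the test. Genes were tested with the edgeR quasi-likelihood F test and called at a Benjamini-Hochberg adjusted p under 0.05 over all 15464 genes. By this test 5 of 9 members were called higher, beside 24.0% of all genes, and 2 of 9 lower, beside 26.2%. Calls in either direction covered 50.2% of all genes, so a call is common among the genes tested. With library totals in place of TMM, 25.9% rather than 47.8% of called genes were higher, 5 members were higher and 4 lower, Cntn1 and Cntn2 being added. The members' median log2 fold change (conduit minus untreated) was 1.11, beside -0.04 for all genes tested. The groups did not overlap in any of the 9 genes, as in 61.7% of all genes. Below, CPM (normalised read counts) are counts relative to the library total after scaling by trimmed mean of M-values (TMM), given as mean ± SD with n = 3 libraries, and ± after a log2 fold change is its standard error.

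**Figure D1:**
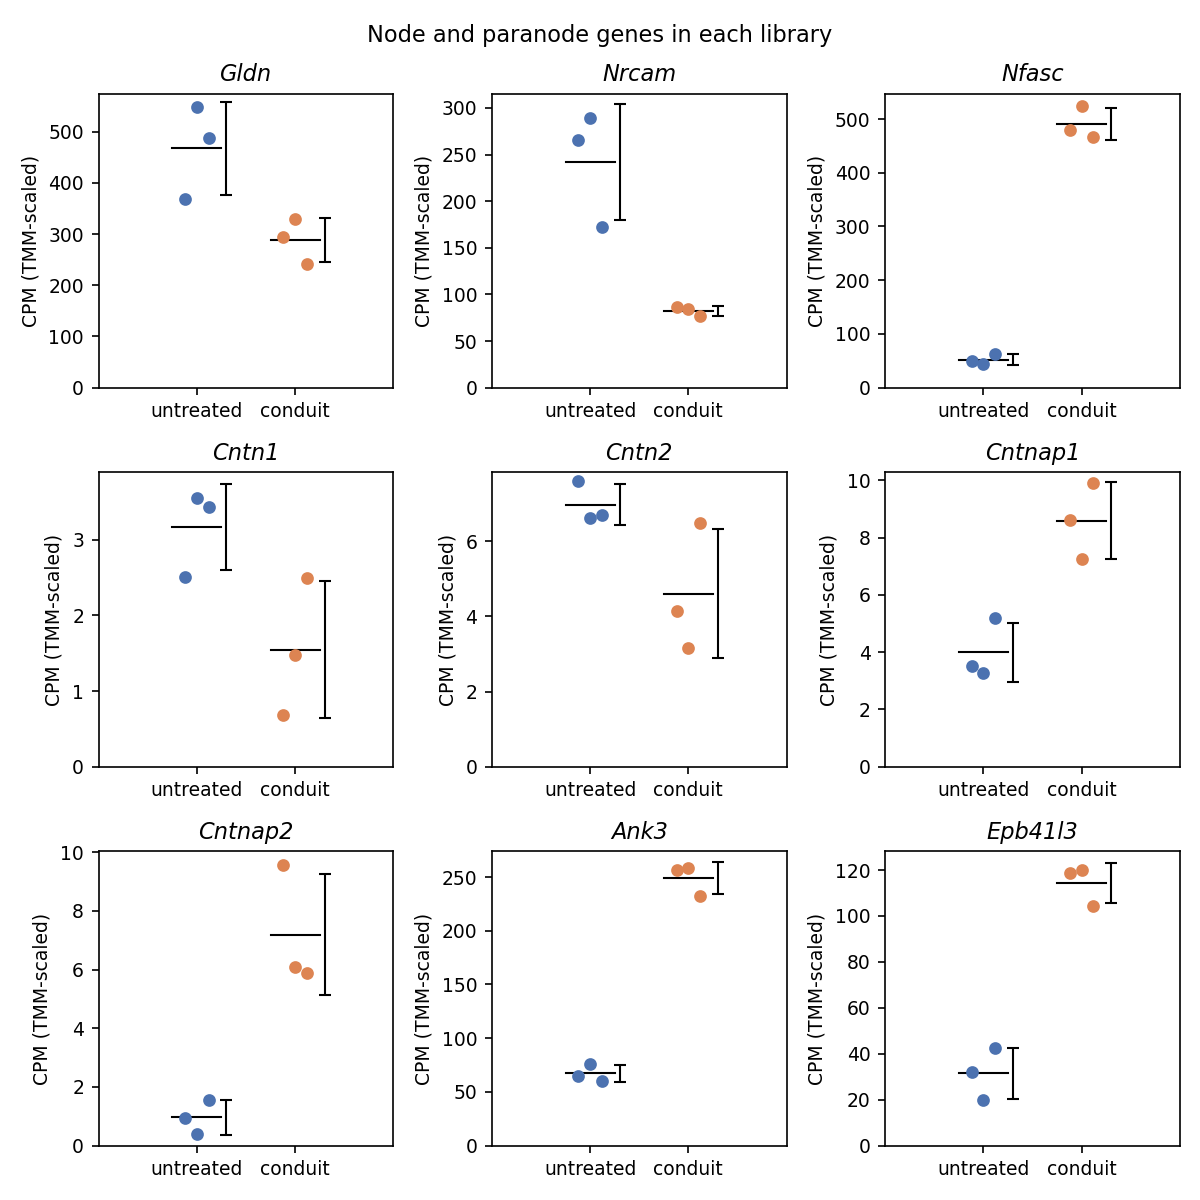
CPM (TMM-scaled, linear axes from 0) of the 9 genes, with points for the 3 libraries of each group in replicate order, horizontal lines for means and bars for ± 1 SD. Nfasc sits at 43.7 to 62.7 CPM in untreated and 466 to 523 CPM in conduit libraries, while Gldn and Nrcam are lower in the conduit libraries.

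Some facts of the whole set bear on these values. Totals ran from 38401951 to 42225086 counts per library. Sox10, a defining transcription factor of the Schwann cell lineage, was present in all 6 libraries at 136 to 365 CPM. All 5 labelled batches (2 untreated, 3 conduit) hold libraries of 1 group, so batch and treatment cannot be told apart and no within-batch value can be given. In untreated replicate 1, 8 skeletal muscle markers summed to 10075 CPM, against 3.50 to 73.4 CPM in the other 5 libraries. Every member kept its direction and its side of the threshold without that library. Schwann cell markers differed between the groups in both directions. All 9 myelinating Schwann cell markers rose (summed 10728 to 26519 CPM untreated, 162267 to 209938 conduit), as did 5 of 6 lineage markers (summed 1604 to 1695 against 5979 to 8276), and all 8 repair or immature Schwann cell markers fell (1067 to 1489 against 182 to 241). All 6 macrophage markers fell (2228 to 2853 against 336 to 550.2) and all 4 perineurial markers rose (339 to 543 against 2037 to 2462). The part of these shifts in the members' changes was not tested, and in bulk nerve fewer cells of a type and less RNA per cell cannot be told apart.

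Among the Schwann cell organisers of the node, Nrcam fell most. It stood at 266, 289 and 172 CPM in untreated replicates 1, 2 and 3, and at 86.0, 84.5 and 76.4 CPM in the conduit replicates. Every untreated library was above every conduit library, and the conduit libraries lay close together. The means were 242 ± 61.9 and 82.3 ± 5.17 CPM, 2.94 times lower with the conduit (log2 fold change -1.56 ± 0.21, adjusted p = 0.000858). With single libraries left out the log2 fold change ran from -1.75 to -1.41. Counts from bulk nerve do not show which cells the Nrcam transcript came from.

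Gldn encodes gliomedin, the Schwann cell ligand that gathers neurofascin and NrCAM at the forming node. It was at 369, 548 and 487 CPM in untreated and at 293, 329 and 242 CPM in conduit libraries. The groups did not overlap, but the lowest untreated library was close to the highest conduit library. The change was -0.70 ± 0.19 (adjusted p = 0.0203), 1.62 times lower with the conduit. Leaving out untreated replicate 3 (-0.67, adjusted p = 0.0507), or from the conduit group replicate 1 (-0.69, 0.0726) or 3 (-0.55, 0.0927), ended the call, which no such omission did for Nrcam.

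Nfasc, which gives rise to the axonal neurofascin of the node and the glial neurofascin of the paranode, changed most among the members. It was at 50.6, 43.7 and 62.7 CPM in untreated and at 480.1, 523 and 466 CPM in conduit libraries. The lowest conduit library was thus far above the highest untreated one. Means were 52.3 ± 9.64 and 489.9 ± 29.9 CPM, 9.37 times higher with the conduit (log2 fold change 3.23 ± 0.18, adjusted p = 7.32e-05), and 98.0% of all tested genes had a lower log2 fold change. Counts per gene do not separate the axonal from the glial isoform. Oligodendrocytes, the myelinating cells of the central nervous system, also make neurofascin, and 4 of their 5 markers rose while Mog was at 0 in the untreated group. Their sums were low, at 2.93 to 6.33 CPM untreated and 35.0 to 50.9 CPM conduit, and their part in the result was not tested.

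Ank3 encodes ankyrin-G, the scaffold under the nodal membrane. It was at 65.0, 76.4 and 60.6 CPM in untreated and at 256, 259 and 232 CPM in conduit libraries, with no overlap. The change was 1.89 ± 0.14 (adjusted p = 0.000114), 3.70 times higher with the conduit.

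Epb41l3 encodes protein 4.1B of the paranode and juxtaparanode. It was at 32.1, 19.8 and 42.3 CPM in untreated and at 119, 119.9 and 105 CPM in conduit libraries. The untreated libraries were farther apart than the conduit libraries, yet all lay below them. The change was 1.86 ± 0.26 (adjusted p = 0.00109), 3.64 times higher with the conduit. Neither Ank3 (1.82 to 1.99) nor Epb41l3 (1.62 to 2.14) lost its call with any single library left out.

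The 4 contactin and Caspr genes were scarce, at under 10 CPM in every library. Cntnap1, the axonal Caspr of the paranode, was at 3.53, 3.27 and 5.18 CPM in untreated and at 8.60, 7.26 and 9.93 CPM in conduit libraries. All conduit libraries were above all untreated ones, and the log2 fold change was 1.11 ± 0.25 (adjusted p = 0.00892). Its partner Cntn1 went the other way in its values, at 2.51, 3.55 and 3.43 CPM untreated and 0.687, 1.47 and 2.49 CPM conduit. Conduit replicate 3 almost reached untreated replicate 1, and the difference of -1.03 ± 0.47 did not pass (95% interval -2.12 to 0.06, adjusted p = 0.104). Cntn1 rested on 25 to 176 counts per library, and without conduit replicate 3 it passed (-1.51, adjusted p = 0.0340), while without conduit replicate 1 it was at -0.66 (adjusted p = 0.208).

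Of the juxtaparanodal pair, Cntnap2 rose. It was at 0.952, 0.384 and 1.56 CPM in untreated and at 9.57, 6.11 and 5.89 CPM in conduit libraries, resting on 19 to 68 and 216 to 348 counts. The change was 2.90 ± 0.51 (adjusted p = 0.00289), 7.44 times higher on the fitted scale. Cntn2 was at 7.60, 6.62 and 6.70 CPM in untreated and at 4.15, 3.17 and 6.50 CPM in conduit libraries. Here too conduit replicate 3 was the one close to the untreated libraries. The difference of -0.60 ± 0.29 did not pass (95% interval -1.28 to 0.08, adjusted p = 0.125), and did without conduit replicate 3 (-0.89, adjusted p = 0.0305), while without conduit replicate 2 it was at -0.37 (adjusted p = 0.338). Conduit replicate 3 also had the highest summed adipocyte markers, 1410 CPM against 294 to 734 CPM in the other 5 libraries, and their part was not tested.

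Neuronal transcripts give the setting for these axonal genes. The nuclear neuronal marker Rbfox3 was at 0.14 to 0.48 CPM over the 6 libraries. Of 9 neuron markers tested, Snap25 and Stmn2 rose, Nefl and Nefm fell and 5 did not pass. Stmn2 went from 4.71 ± 1.24 to 14.2 ± 5.02 CPM (1.59 ± 0.32, adjusted p = 0.00494) and kept its call in all 15 alternatives. Nefl and Nefm went the other way from Cntnap1 and Cntnap2, while Nefh (0.32 ± 1.04) and Prph (0.47 ± 0.30) did not pass. Nefl was at 2.25, 83.5 and 45.0 CPM in untreated and 5.68 to 6.50 CPM in conduit libraries. Its call was lost in 9 of 15 alternatives, among them without untreated replicate 2 or 3 or any conduit replicate. Nefm lost its own without conduit 2 (adjusted p = 0.0522), and Snap25 without untreated 1 (0.0699), untreated 3 (0.0754) or conduit 1 (0.111). The part of axonal RNA in the Cntnap1 and Cntnap2 changes was not tested.

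**Figure D2:**
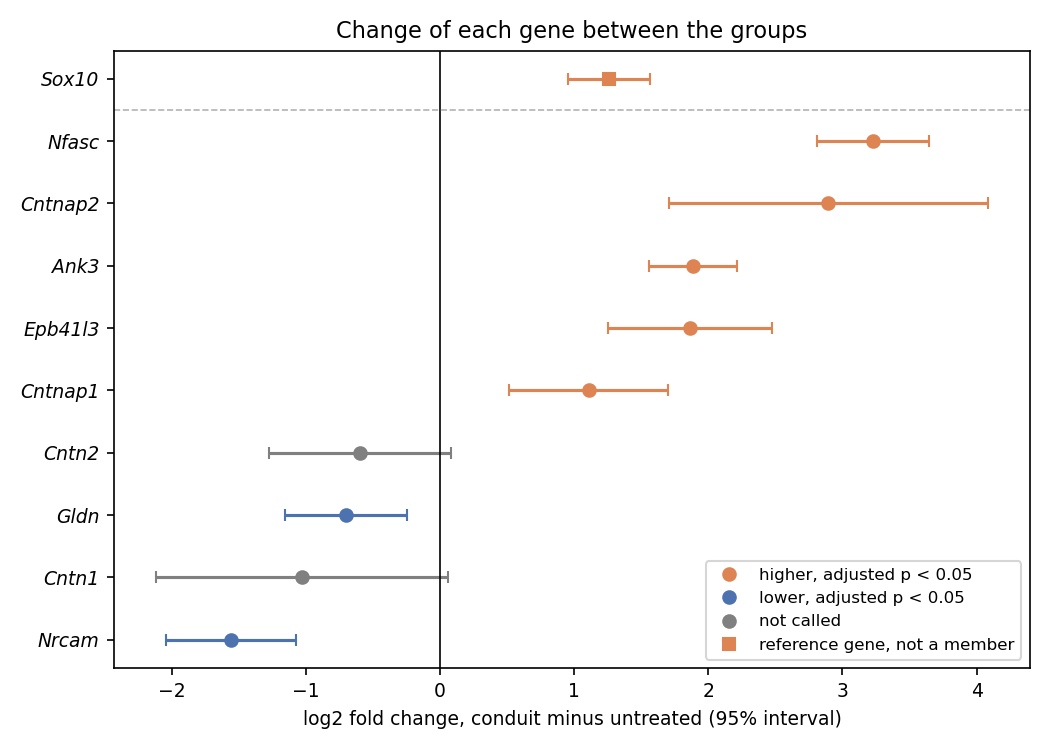
Log2 fold change (conduit minus untreated) with its 95% interval for the 9 genes and, as a square, for Sox10. Nfasc (3.23) lies farthest to the right, Gldn and Nrcam lie below 0, and the intervals of Cntn1 and Cntn2 include 0.

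Levels of different genes can be set side by side on the scale of the deposited FPKM (fragments per kilobase of gene, scaled to the library total), which corrects for gene length. FPKM is scaled by library totals, on which conduit values stand lower than on the TMM scale. In untreated nerve Gldn led by far, at 203 ± 45.0 FPKM, followed by Nrcam (25.4 ± 6.88), Nfasc (5.36 ± 0.906), Epb41l3 (3.70 ± 1.27) and Ank3 (3.67 ± 0.552). Nfasc, Epb41l3 and Ank3 are not all separated, since the libraries of Epb41l3 (2.43 to 4.96) overlap those of both others. Cntn2 (0.826 ± 0.0475) and Cntnap1 (0.778 ± 0.193) also overlapped, above Cntn1 (0.509 ± 0.103) and Cntnap2 (0.0987 ± 0.0594). In conduit nerve Gldn still led, at 95.3 ± 11.7 FPKM, but Nfasc was next at 38.4 ± 1.42, then Ank3 and Epb41l3, both at 10.3 FPKM (SD 0.317 and 0.483) and not separated, and Nrcam at 6.57 ± 0.253. Cntnap1 was at 1.29 ± 0.238 FPKM. Cntnap2 (0.565 ± 0.158), Cntn2 (0.421 ± 0.170) and Cntn1 (0.192 ± 0.117) followed, each overlapping its neighbour in this order. Nrcam thus went from the second to the fifth place and Nfasc from the third to the second.

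The make-up of these transcripts shifted from Gldn towards Nfasc. Gldn made up 83.1 ± 3.56% of the 9 genes' summed FPKM in untreated and 58.2 ± 2.55% in conduit nerves. Nfasc went from 2.26 ± 0.574% to 23.6 ± 1.44%, and Nrcam from 10.6 ± 3.21% to 4.03 ± 0.257%. The direction of the sum itself turned with the scale: it was 244 ± 46.5 FPKM in untreated and 163 ± 13.1 FPKM in conduit nerves, but 797 to 990.3 TMM-scaled CPM in untreated and 1146 to 1334 CPM in conduit libraries. These scales differ in the correction for gene length as well as in library scaling. A count of Gldn (length implied by the deposited values 2.64 kb) weighs more in FPKM than a count of Nfasc (11.1 kb).

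**Figure D3:**
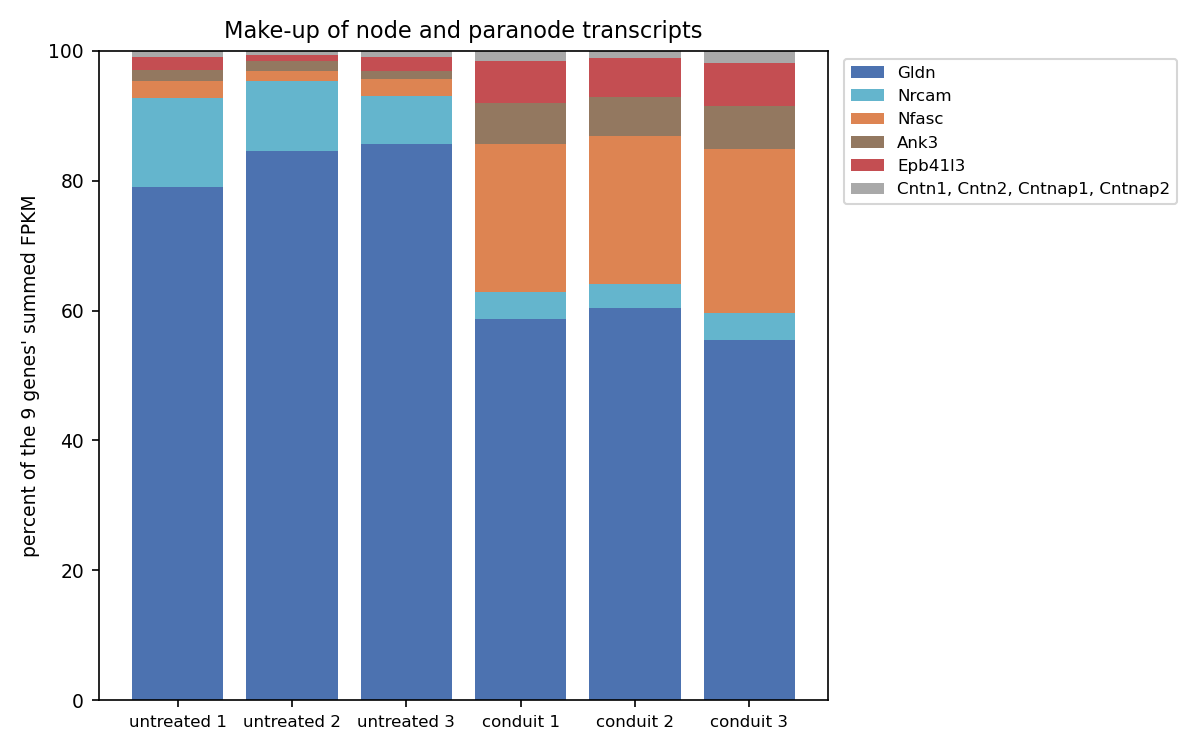
Percent of the 9 genes' summed FPKM, 1 bar per library. Gldn, Nrcam, Nfasc, Ank3 and Epb41l3 are drawn singly, and Cntn1, Cntn2, Cntnap1 and Cntnap2 are pooled. Gldn takes 79.0% to 85.7% in untreated and 55.4% to 60.4% in conduit libraries, while Nfasc rises from 1.60% to 2.62% to 22.8% to 25.3%.

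Binding partners were set against each other by the ratio of their FPKM in each library. Gldn exceeded Nfasc by 30.8, 52.9 and 32.8 times in untreated libraries, and by 2.58, 2.65 and 2.19 times in conduit libraries. For Cntn1 and Cntnap1, which form a single axonal complex, the ratio was 0.584, 0.892 and 0.544 in untreated and 0.0656, 0.166 and 0.206 in conduit libraries. For Cntn2 and Cntnap2 it was 9.20, 19.9 and 4.93 in untreated and 0.50, 0.598 and 1.27 in conduit libraries. None of these 3 ratios overlapped between the groups. In each pair the first gene was lower and the second higher with the conduit, both without overlap in FPKM. An exact permutation test (two-sided) gave p = 0.1 for each, the smallest that 3 against 3 libraries allow, and 0.115 adjusted over the 15 ratios computed. This outcome was fixed by the single-gene differences and adds nothing to them.

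Member counts were also set against those of Sox10, which itself rose by 1.26 ± 0.13. Gldn stood at 339 ± 63.2 counts per 100 Sox10 counts in untreated and 87.4 ± 12.2 in conduit nerves, 3.88 times lower. Nrcam was 7.03 times lower, at 176 ± 45.6 and 24.98 ± 1.27. Both were thus farther apart than on the CPM scale, as were Cntn1 (4.69 times lower) and Cntn2 (3.56 times lower). Nfasc was 3.93 times higher per Sox10 count, Cntnap2 3.07, Ank3 1.55 and Epb41l3 1.52 times. These 8 ratios did not overlap between groups (exact permutation p = 0.1 each, adjusted 0.115), whereas Cntnap1 did, at 2.89 ± 0.730 and 2.63 ± 0.576 counts per 100 Sox10 counts (exact permutation p = 0.5, adjusted 0.536). For Gldn, Nrcam, Cntn1 and Cntn2 the outcome was fixed in advance, since their counts fell and those of Sox10 rose, both without overlap.

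Other genes of the same structures were described from 5 lists. Of all genes tested, 24.0% were called higher and 26.2% lower. Of 14 genes of the axonal node, mostly ion channels, 10 could be tested and 3 passed, all higher (median log2 fold change 0.44). These 30% called lie below the 50.2% called of all genes, and near the 24.0% called higher. Kcnk2, a two-pore potassium channel, rose (2.69 ± 0.25) from 2.35 ± 0.354 to 15.2 ± 3.96 CPM. Fgf14, a sodium channel binding factor (1.46 ± 0.42, adjusted p = 0.0224), and Scn9a, a sodium channel of sensory axons (1.50 ± 0.51, adjusted p = 0.0427), were the others. Both missed the threshold with library totals (adjusted p = 0.0552 for Fgf14 and 0.096 for Scn9a) and with some libraries left out. For Fgf14 these were untreated 1 (adjusted p = 0.0586), untreated 2 (0.0563), conduit 2 (0.0824) and conduit 3 (0.0530). For Scn9a they were untreated 2 (0.0885), untreated 3 (0.113), conduit 2 (0.152) and conduit 3 (0.0805). The groups overlapped in Scn9a, with conduit 1 at 1.62 CPM and untreated libraries at 0.897 to 1.82 CPM, but not in Fgf14. Scn8a, the main sodium channel of mature nodes, was at 0.21 to 0.50 CPM over the 6 libraries and did not pass (0.62 ± 0.43, adjusted p = 0.265). Scn4b was at 10.4 CPM in untreated replicate 1, the library with muscle transcripts, and at 0.08 to 0.39 CPM in the other libraries. Its log2 fold change went from -3.42 to 1.88 without that library, and it passed in neither case.

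Of the Schwann cell microvilli and nodal gap matrix list, 13 of 14 genes were tested. Of these, 7 were higher and 4 lower (median 0.76), beside 24.0% and 26.2% of all genes. The 3 with the smallest adjusted p among those higher were Sdc3, a heparan sulphate proteoglycan (2.05 ± 0.19), Dmd, the dystrophin gene (2.21 ± 0.23), and Dag1, dystroglycan (1.24 ± 0.16). Vcan, the matrix proteoglycan versican (-1.86 ± 0.19), Furin, a protease that processes gliomedin among many other proteins (-1.03 ± 0.16), and Ezr, the ezrin of the microvilli (-0.81 ± 0.15), fell. The fourth lower gene was Msn, moesin (-1.02 ± 0.35, adjusted p = 0.0452), whose call ended when untreated 2 was left out (-0.50, adjusted p = 0.0667), and likewise for conduit 1 (0.133), conduit 2 (0.135) and conduit 3 (0.0749).

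The paranodal cytoskeleton, glycolipid and autotypic junction list had 15 of 16 genes higher (median 1.60), beside 24.0% of all genes. The remaining gene, Epb41, stood at 0.01 ± 0.14. Gal3st1, which makes the sulphatide that paranodes need, rose (2.23 ± 0.15) from 13.0 ± 0.442 to 60.9 ± 10.6 CPM. Jam3, a junction adhesion molecule (2.01 ± 0.15), rose too. Ugt8, the enzyme of galactosylceramide synthesis, had the largest change of this list at 4.21 ± 0.40, and was picked out after its values were seen.

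In the juxtaparanode and internode list 11 of 15 genes were higher and 1 lower (median 1.43), beside 24.0% and 26.2% of all genes. The potassium channel gene Kcna1 (2.34 ± 0.26) and the internodal adhesion genes Cadm3 (2.45 ± 0.29) and Cadm4 (1.73 ± 0.22) rose. Kcna2, the channel subunit that pairs with Kcna1 at the juxtaparanode, went from 10.9 ± 9.53 to 256 ± 28.3 CPM (4.56 ± 0.66), and was also picked out after its values were seen. The lower gene was the channel's auxiliary subunit Kcnab2 (-0.46 ± 0.14, adjusted p = 0.0277). Its call ended when untreated 3 (adjusted p = 0.0913), conduit 1 (0.0837), conduit 2 (0.0728) or conduit 3 (0.125) was left out.

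Relatives of the members were mostly close to absent or higher. Of 19 listed, 9 were too low to test, among them the contactin genes Cntn3, Cntn4, Cntn5 and Cntn6. Of the 10 tested, 6 were higher (median 1.16), and the 60% called lies near the 50.2% of all genes. Epb41l4b (2.08 ± 0.14), a relative of protein 4.1B, L1cam (2.18 ± 0.25), which shares a family with Nfasc and Nrcam, and Ank2, the ankyrin of the paranode (1.40 ± 0.17), rose. The lists share genes: Ank2 and Epb41 are also in the paranodal list, and Epb41l2 is also in the juxtaparanode list. The higher genes Ank2 and Epb41l2 are thus counted in both of their lists. Chl1, another member of the L1 family, was at -0.08 ± 0.25. Ank1 followed the muscle markers, with 23.6 CPM in untreated replicate 1 and 0.12 to 0.49 CPM elsewhere, and its log2 fold change went from -4.27 to 1.02 without that library, passing in neither case. Without untreated replicate 2 or 3 it did pass as lower (-4.84 and -4.85, adjusted p = 0.0458 and 0.0341).

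**Figure D4:**
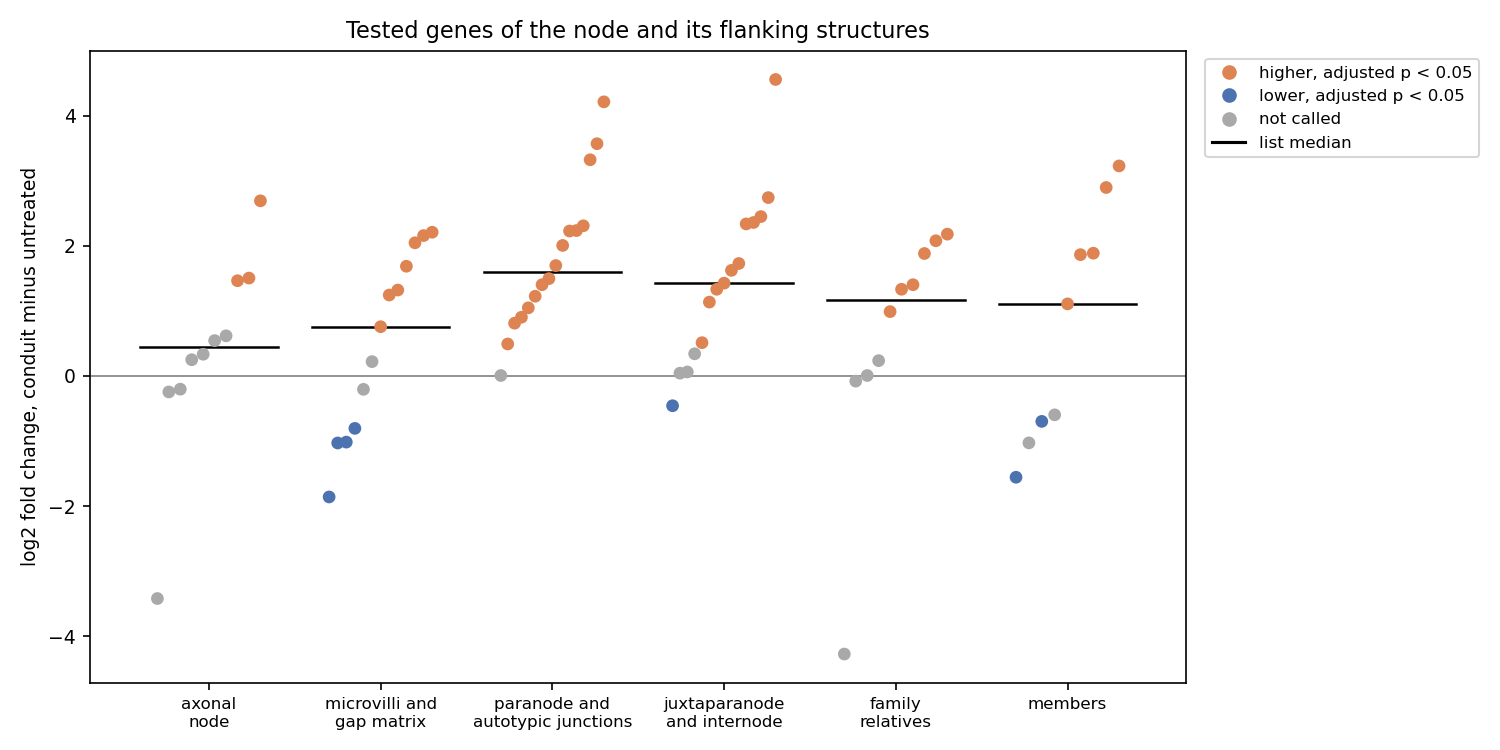
Log2 fold change of each tested gene in the 5 lists and the 9 members, sorted within each column, with the column median as a line. The paranode and juxtaparanode columns lie mostly above 0 with medians of 1.60 and 1.43, with 1 juxtaparanode gene called lower. The microvilli and member columns hold 4 and 2 genes called lower beside those called higher.

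Likeness to each member was measured by Pearson's r of log2 CPM over the 6 libraries, as a description. The libraries fall into 2 groups, and genes that separate them widely can give a high r by that alone. Lack of overlap did not ensure it: Gldn and Cntn2, both lower in every conduit library than in every untreated one, had an r of 0.35. For Nfasc the closest were Clcn2, Sorcs1 and Nsdhl (each r = 0.999), and 1894 tested genes had an r of 0.95 or more. For Gldn they were Ints14, Nrip3 and Pfas (0.990, 0.987 and 0.987), with 44 such genes. Cntn2 had 38 such genes, and Cntn1 had 129, with Papolg first (0.994). The first genes were Eif3b for Nrcam (0.998), Il23a for Cntnap1 (0.997), LOC102550036 for Cntnap2 (0.999), and Tlcd4 for Ank3 and Chadl for Epb41l3 (1.00 each on rounding).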

How the data were processed

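Per the labels' protocols, TRIzol was used for extraction, and mRNA was enriched for VAHTS Universal V10 libraries. Strand and counting settings are not given in the sources used here, so overlapping genes may share reads. The tools DESeq2, HTSeq, HISAT2 and fastp and the build mRatBN7.2 are named, per the submitters' processing notes, with no versions or roles. The authors deposited raw counts per gene, 1 column per library, and FPKM values per library. No sample column was left unused.

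Counts were fitted with edgeR 4.0.16 in R 4.3.3 (filterByExpr, minimum count 10, TMM scaling, group as the only term, quasi-likelihood F test, two-sided, Benjamini-Hochberg adjustment over 15464 genes). The fit was tested on simulated data. Standard errors come from dividing log2 fold changes by the root of the F statistic. Ratios were compared by exact permutation tests in scipy 1.17.1. Totals ran from 38401951 to 42225086 counts. Genes with few counts, such as Cntn1 (25 to 176 per library), are measured less precisely.

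The members and lists were chosen with earlier results of these data known, and ratios, shares and motifs after the values were seen. Named genes are the 9 members, up to 3 called genes per direction and list with the smallest adjusted p (mean in either group no less than 1 CPM), and the 3 genes most like each member. Some genes that this rule selects are not reported here, and others were named after their values were seen. Alternatives were each library left out, a replicate block, library totals or RLE scaling in place of TMM, DESeq2 1.42.0, the count filter dropped or set at 5 CPM in 3 libraries, and limma 3.58.1 on log2(FPKM + 1), filtered (FPKM 0.5 or more in 3 libraries) or not, and on log2(FPKM + 0.1), filtered.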

Additional observations from a re-analysis of the deposited data

How the results depend on the processing

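Over 130 member-by-alternative values, 117 stayed on the same side of the threshold in the same direction, 4 lost a call (Gldn 3 times, Cntnap1 once, at 0.36 and adjusted p = 0.0662 with unfiltered limma on FPKM) and 9 gained one (Cntn1 4 times, Cntn2 5 times), and no member reversed. The number of members lower was 4 with library totals and 4 with unfiltered limma on FPKM, and 1 to 3 with single libraries left out. Library totals moved the median of all genes by -0.39 on the log2 scale, so that 25.9% of called genes were higher against 47.8% with TMM. All genes higher numbered 2291 with library totals and 2044, 2034 and 2254 with limma on log2(FPKM + 1), log2(FPKM + 0.1) and unfiltered FPKM. All genes lower numbered 6554 with library totals and 6263 with unfiltered FPKM. The axonal node list had 1 gene higher with library totals, 1 with 5 CPM in 3 libraries, 1 with each FPKM setting, and 1 to 3 with single libraries left out. With a single library left out, 0 to 1 juxtaparanode and 0 to 1 relative genes were lower. Without untreated replicate 1, the library with muscle transcripts, Scn4b reversed to 1.88 and Ank1 to 1.02, and with each library left out in turn they ran from -3.99 to 1.88 and from -4.85 to 1.02. Epb41 and Chl1, which passed in no setting, also changed sign: Epb41 stood at -0.38 with library totals and at -0.32, -0.38 and -0.32 with the FPKM settings, and with single libraries left out Epb41 ran from -0.036 to 0.13 and Chl1 from -0.25 to 0.19. The cause of the other changes was not tested.

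No label links libraries with the same replicate number beyond that number. Their deviations from the group means correlated at 0.14, -0.03 and 0.06. Untreated replicates 1 and 3 correlated best with the conduit library of their own number, and untreated replicate 2 with conduit replicate 3 (0.10). Whether these libraries are paired cannot be told from such low values. With the replicate block 3622 genes were higher and 3892 lower (3711 and 4049 without it), 5 members were higher and 3 lower, Cntn1 passing at -1.18 (adjusted p = 0.0490), and the juxtaparanode list had 0 genes lower, Kcnab2 missing the threshold (edgeR adjusted p = 0.0606, unadjusted p = 0.0311), as did Msn (0.0612), Scn9a (0.0909) and Nefl (0.184).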
